A study of Mus musculus with 8 samples.

Results

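The fibrillar collagens are the collagens whose chains wind into long triple helices and pack side by side into the fibrils of connective tissue. The 10 genes described here, Col1a1, Col1a2, Col2a1, Col3a1, Col5a1, Col5a2, Col5a3, Col11a1, Col24a1 and Col27a1, were picked out by symbol, and each was found once among the 50578 genes of the count table. RNA-seq had been performed on wild-type mouse embryonic fibroblasts (MEFs), primary connective tissue cells grown from E13.5 C57BL/6J embryos without head, limbs and internal organs and used at passage 3 to 5. The 4 groups of 2 libraries each were untreated MEFs and MEFs kept in 10 µM carbidopa, LY-364947 or CHIR-99021, with the molecule added 2 h after plating. Of these small molecules, carbidopa blocks the enzyme aromatic-L-amino-acid decarboxylase. LY-364947, which the sample labels spell LY-364747, blocks the TGF-beta type I receptor. CHIR-99021 blocks GSK3, a kinase that restrains Wnt signalling. How long the cells sequenced here had been treated, whether the control received solvent and whether the 2 libraries of a group came from separate cultures are not given in the sources used here, so the p-values measure the spread between libraries, which may be technical.

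Type I collagen, built from alpha1 and alpha2 chains encoded by Col1a1 and Col1a2, is the main product of fibroblasts, and type III collagen, a homotrimer of the Col3a1 chain, is woven into the same fibrils. Type V and type XI chains (Col5a1, Col5a2, Col5a3, Col11a1) form minor collagens that sit inside the fibril, where they start its assembly and limit its diameter. Type II collagen (Col2a1) is the major fibril of cartilage, while Col24a1 and Col27a1 encode later described members found mostly in developing skeleton. TGF-beta is a well known inducer of fibrillar collagen genes in fibroblasts.

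Libraries held between 15039566 and 20504338 counts, and 15154 genes (30.0%) had enough counts for a test. Levels are given as CPM, each count relative to the TMM-scaled size of its library, a normalization that adjusts for composition. Replicates differed most in the carbidopa pair, with a chi-square per degree of freedom over genes of 34.6, where sampling noise alone would give about 1, against 4.31 for MEF, 7.25 for LY-364947 and 9.21 for CHIR-99021. The treated cells carry the label of hepatic-like cells, but the 10 hepatocyte markers summed to only 1.22 to 1.57 CPM in treated libraries and 0.223 to 0.516 CPM in MEFs, with Serpina1a, Tat and Ahsg at 0 in all groups. All 10 fibroblast markers were detected in every group, but 7 of them were lower and 1 higher than in MEFs in each treatment. Their summed level was 7577 to 7820 CPM in MEFs, 4482 to 4782 CPM with carbidopa, 4493 to 4697 CPM under LY-364947 and 3613 to 3749 CPM with CHIR-99021. Macrophage markers, which the cultures also held, summed to 1136 to 1178 CPM in MEFs, 351 to 375 CPM with carbidopa, 262 to 267 CPM under LY-364947 and 85.4 to 93.4 CPM with CHIR-99021, with 12 of 12 detected in every group and 11, 11 and 12 of them lower than in MEFs. Epithelial markers summed to 3.23 to 4.24 CPM in MEFs, 13.1 to 21.5 CPM with carbidopa, 9.82 to 11.8 CPM under LY-364947 and 11.1 to 13.1 CPM with CHIR-99021, and of the 3 of 8 that could be tested 1, 1 and 3 were higher than in MEFs. Epcam, Cdh1 and Cldn3 were at 0 in MEFs. Tendon markers summed to 23.6 to 27.0 CPM in MEFs and 30.5 to 50.02 CPM in treated libraries, where 3 of 4 were lower and 1 higher in each treatment. Osteoblast markers summed to 33.8 to 39.0 CPM in MEFs and 17.6 to 34.4 CPM in treated libraries, and endothelial markers to 16.8 to 19.6 CPM and 11.3 to 15.6 CPM. The part of these shifts in the collagen levels below was not tested, and in bulk RNA fewer cells of a type and less RNA per cell cannot be told apart.

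On mm10, Col1a1 lies at chr11:94936224-94953042 and Col1a2 at chr6:4504814-4541544. Col3a1 (chr1:45311538-45349706) and Col5a2 (chr1:45374321-45503282) are neighbours that end 24.6 kb from each other on opposite strands, with 0 annotated genes between them. Col5a1 lies at chr2:27886425-28039514, Col5a3 at chr9:20770050-20815067, Col11a1 at chr3:114030540-114220718, Col24a1 at chr3:145292472-145552011, Col27a1 at chr4:63214004-63334991 and Col2a1 at chr15:97975602-98004695. Genes of other symbols overlap 1.44% of the exonic bases of Col3a1 and 2.50% of those of Col5a1, and 0 exonic bases of the other 8. The members thus sit on 8 chromosomes, and only the pair on chromosome 1 is adjacent.

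RefSeq promoters (GRCm38.p6) were matched for 7 of the 10 genes, and the 120 bases before the start of transcription are shown for 3 genes that were lower in every treatment and for Col27a1, which was not called in any. Capitals mark matches, on either strand, to the motifs searched: the CCAAT box (CCAAT), the GC box (GGGCGG), the TATA box (TATAAA), a Smad-type element (CAGACA), a TCF/LEF-type element (CTTTGA), a TEAD-type element (GGAATG) and an AP-1-type element (TGANTCA). The windows are chr1:45311418-45311537 (plus strand) for Col3a1, chr2:27886305-27886424 (plus) for Col5a1, chr3:114030420-114030539 (plus) for Col11a1 and chr4:63215292-63215411 (plus) for Col27a1.
Col3a1: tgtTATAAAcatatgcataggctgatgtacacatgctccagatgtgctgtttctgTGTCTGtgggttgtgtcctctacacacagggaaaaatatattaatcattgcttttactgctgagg
Col5a1: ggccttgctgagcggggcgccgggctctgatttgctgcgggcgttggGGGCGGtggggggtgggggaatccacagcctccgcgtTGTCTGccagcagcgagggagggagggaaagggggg
Col11a1: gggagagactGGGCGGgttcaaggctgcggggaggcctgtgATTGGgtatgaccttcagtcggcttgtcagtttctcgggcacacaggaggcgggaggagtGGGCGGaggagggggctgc
Col27a1: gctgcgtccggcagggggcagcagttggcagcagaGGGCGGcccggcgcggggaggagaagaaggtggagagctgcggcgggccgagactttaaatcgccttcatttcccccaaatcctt

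These promoters differed widely in make-up. Over 250 bases before the start, Col3a1 held 35.2% G and C and 0 CpG dinucleotides, whereas Col5a1 held 76.4% and 28, against medians of 52.4% and 6 over 32851 promoters. The GC box was found in 5 of the 7 promoters (Col1a2, Col5a1, Col5a3, Col11a1 and Col27a1), and in 32.7% of all promoters. A Smad-type element was found in Col1a2, Col3a1 and Col5a1, and in 17.1% of all promoters. CCAAT was found in Col1a2, Col5a3 and Col11a1 (33.8% of all promoters), TATAAA in Col3a1 (12.4%), the TEAD-type element in Col3a1 (12.6%), the TCF/LEF-type element in Col5a3 (13.8%) and the AP-1-type element in 0 of the 7 (6.75%). None of the motifs was common to all 7 promoters. A match is a description of the letters and not a mapped binding site. For Col1a2, all 120 bases before the start used here are annotated as exon. This window and that of Col27a1 lie inside the annotated genes.

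The fibrillar collagen genes described here were, as a sum, lower in all 3 treatments. Together they took 1.16% and 1.15% of all counts in the MEF libraries, but 0.362% and 0.343% in the carbidopa libraries, 0.536% and 0.492% under LY-364947 and 0.431% and 0.418% with CHIR-99021. On the scaled level they summed to 13030 ± 45.1 CPM in MEFs (SD, n = 2 here and below), 3344 ± 84.8 CPM with carbidopa, 4960 ± 360 CPM under LY-364947 and 4124 ± 69.8 CPM with CHIR-99021, or 25.7%, 38.1% and 31.7% of MEF. The groups did not overlap, and LY-364947 retained the highest level of the treated cells. Leaving out Col1a1, the sums were 29.6%, 33.3% and 30.4% of MEF, so the treatments lay closer to each other. Col1a1, Col1a2, Col3a1, Col5a1 and Col5a2 made up 98.0% to 99.3% of the reads of the family in every library.

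**Figure D1:**
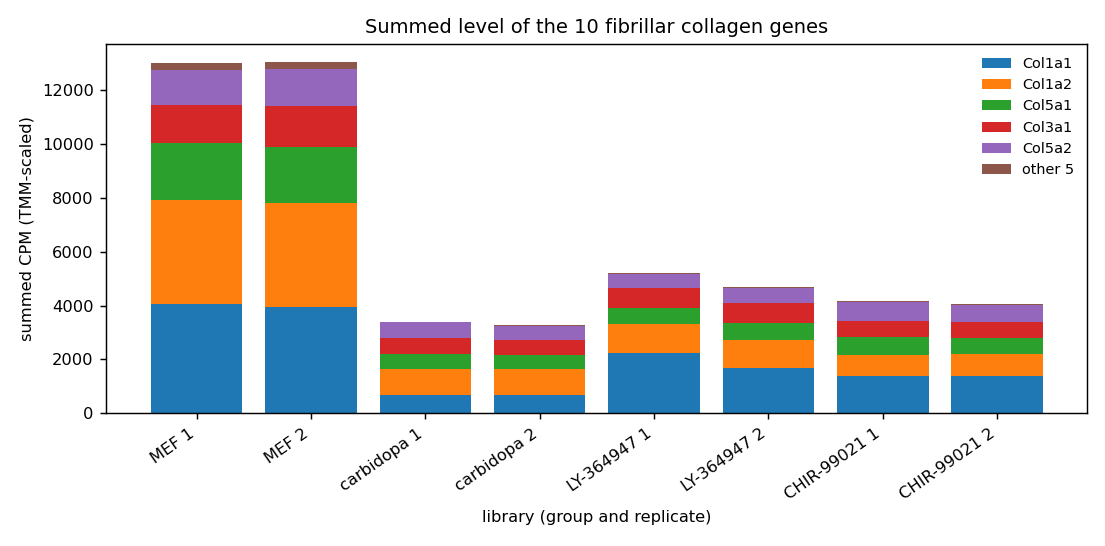
Summed level of the 10 genes in each library, in TMM-scaled CPM, with each bar stacked by gene for the 5 most abundant genes and the other 5 drawn as 1 segment. The MEF bars reach 13000 and 13060 CPM and the treated bars 3284 to 5215 CPM, and the Col1a1 segment is thickest with LY-364947 among the treated libraries.

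Of the 9 genes that passed the filter on low counts, 8 were lower and 0 higher than in MEFs with each of carbidopa, LY-364947 and CHIR-99021, at an adjusted p under 0.05 over all genes tested. Of all 15154 genes, 19.7% were lower and 18.0% higher under carbidopa, 17.2% lower and 13.7% higher under LY-364947, and 20.1% lower and 18.7% higher under CHIR-99021. Across the 9 genes the median change on the log2 scale was -1.98 for carbidopa, -1.50 for LY-364947 and -1.70 for CHIR-99021, whereas that of all genes tested was 0.04, 0.03 and 0.04. These comparisons share the MEF libraries. The members, like the gene lists below, were chosen with earlier results of these data known, so the contrast with all genes is a description only. The exception among the 9 was Col27a1, and Col2a1 had too few counts for a test. Col11a2, a fibrillar collagen gene that is not a member here, was higher in each treatment from a low mean of 0.407 CPM in MEFs. It is given with the fibril partners below.

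**Figure D2:**
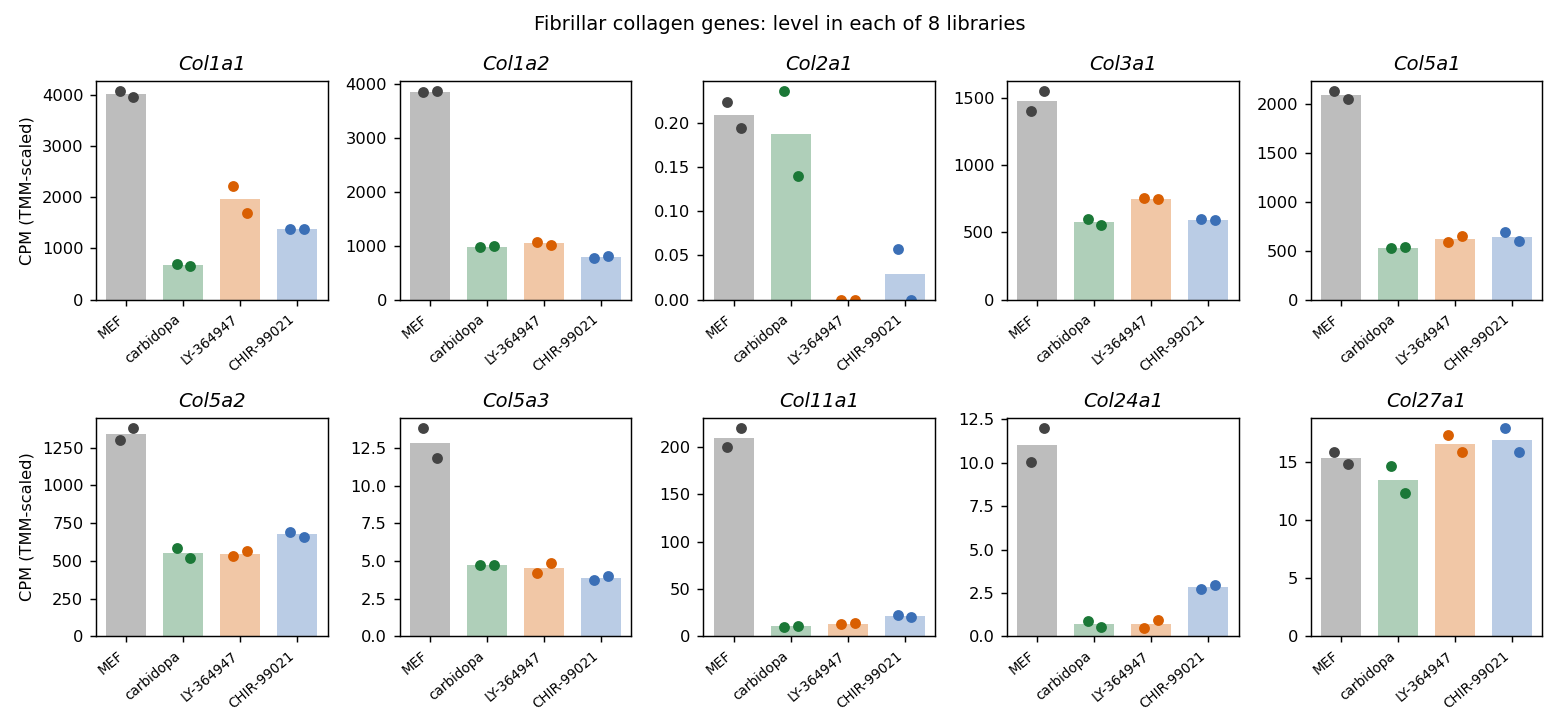
Level of each gene in TMM-scaled CPM, with a panel per gene and its own axis from 0. Points are libraries and bars are group means (n = 2). In 8 panels both MEF points lie above all 6 treated points, a pattern whose share among all genes was not counted. The exceptions are Col27a1, where the groups lie close together, and Col2a1, which stays near 0.

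Type I collagen transcripts were the most abundant of the family and fell in every treatment, but its genes did not fall alike. Col1a1 had 4076 and 3960 CPM in MEFs, 688 and 666 CPM with carbidopa, 2232 and 1697 CPM under LY-364947 and 1387 and 1386 CPM with CHIR-99021. The carbidopa libraries were the lowest, and the LY-364947 libraries lay above the other treated cells with the widest spread. The log2 fold change of Col1a1 was -2.57 ± 0.13 (SE here and below, adjusted p = 2.55e-07) with carbidopa, -1.03 ± 0.13 (0.000135) under LY-364947 and -1.54 ± 0.13 (8.09e-06) with CHIR-99021. Its rank by CPM among the genes tested moved from 18 in MEFs to 146 with carbidopa, 25 under LY-364947 and 49 with CHIR-99021.

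Col1a2 had 3845 and 3864 CPM in MEFs, 975 and 985 CPM with carbidopa, 1072 and 1014 CPM under LY-364947 and 763 and 800 CPM with CHIR-99021. In contrast to Col1a1, it was lowest with CHIR-99021, and its levels with carbidopa and LY-364947 lay next to each other. The log2 fold change of Col1a2 was -1.98 ± 0.10 (adjusted p = 1.58e-07) with carbidopa, -1.89 ± 0.10 (2.18e-07) under LY-364947 and -2.30 ± 0.10 (5.99e-08) with CHIR-99021.

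Col3a1, the type III chain, fell less than Col1a2 in each treatment. It had 1405 and 1549 CPM in MEFs, 597 and 551 CPM with carbidopa, 753 and 745 CPM under LY-364947 and 597 and 590 CPM with CHIR-99021. All treated libraries lay well under both MEF libraries, and those of LY-364947 were the highest of them. The log2 fold change of Col3a1 was -1.36 ± 0.10 (adjusted p = 2.84e-06) with carbidopa, -0.98 ± 0.10 (3.06e-05) under LY-364947 and -1.32 ± 0.10 (3.64e-06) with CHIR-99021.

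The type V genes, whose product nucleates type I fibrils, fell in all treatments as well. Col5a1, which encodes the alpha1(V) chain, had 2127 and 2048 CPM in MEFs, 525 and 533 CPM with carbidopa, 590 and 652 CPM under LY-364947 and 687 and 596 CPM with CHIR-99021. The treated groups lay near each other and far under the MEF libraries. Its log2 fold change was -1.98 ± 0.11 (adjusted p = 3.92e-07) with carbidopa, -1.75 ± 0.11 (9.48e-07) under LY-364947 and -1.70 ± 0.11 (1.02e-06) with CHIR-99021. Col5a2, the alpha2(V) chain, had 1303 and 1379 CPM in MEFs, 588 and 520 CPM with carbidopa, 533 and 562 CPM under LY-364947 and 693 and 659 CPM with CHIR-99021. It retained more of its MEF level than Col5a1 in each treatment. The log2 fold change of Col5a2 was -1.28 ± 0.10 (adjusted p = 6.09e-06), -1.29 ± 0.10 (5.75e-06) and -0.99 ± 0.10 (3.56e-05) in the same order. Col5a3, a rarer alpha3(V) chain, had 13.8 and 11.9 CPM in MEFs, 4.71 and 4.76 CPM with carbidopa, 4.21 and 4.85 CPM under LY-364947 and 3.74 and 4.0 CPM with CHIR-99021. At 65 to 186 counts per library it was measured with less precision. Its log2 fold change was -1.44 ± 0.17 (adjusted p = 0.000114), -1.50 ± 0.18 (9.85e-05) and -1.73 ± 0.18 (3.93e-05).

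The deepest falls of the family were those of Col11a1 and, with carbidopa and LY-364947, Col24a1. Col11a1, which encodes the alpha1(XI) chain of cartilage fibrils and also joins type V chains in other tissues, had 199.9 and 219.8 CPM in MEFs, 9.79 and 11.3 CPM with carbidopa, 12.5 and 13.9 CPM under LY-364947 and 22.1 and 20.7 CPM with CHIR-99021. Treated cells held 5.03%, 6.29% and 10.2% of the MEF level. The log2 fold change of Col11a1 was -4.31 ± 0.13 (adjusted p = 5.30e-09), -3.99 ± 0.12 (7.71e-09) and -3.29 ± 0.12 (2.61e-08). Of the 15154 genes tested, 0.601%, 0.739% and 2.30% had a lower log2 fold change than Col11a1 with carbidopa, LY-364947 and CHIR-99021.

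Col24a1, a late-described fibrillar chain known from forming bone, had 135 and 186 counts in MEFs (10.0 and 12 CPM), 19 and 11 for carbidopa (0.894 and 0.513 CPM), 8 and 18 for LY-364947 (0.449 and 0.959 CPM) and 47 and 51 with CHIR-99021 (2.71 and 2.96 CPM). The carbidopa and LY-364947 libraries overlapped each other and lay under those of CHIR-99021. Its log2 fold change was -3.96 ± 0.32 (adjusted p = 6.82e-06), -3.95 ± 0.33 (8.52e-06) and -1.96 ± 0.28 (0.000318). When any 1 library was left out it stayed between -4.41 and -3.61 with carbidopa, -4.60 and -3.51 under LY-364947 and -2.08 and -1.83 with CHIR-99021.

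Col27a1, a fibrillar chain of the cartilage growth plate, was the tested member without a call. It had 15.8 and 14.8 CPM in MEFs, 14.6 and 12.3 CPM with carbidopa, 17.3 and 15.8 CPM under LY-364947 and 17.9 and 15.8 CPM with CHIR-99021. Its log2 fold change from MEF was -0.19 with carbidopa (95% interval -0.51 to 0.14, adjusted p = 0.334), 0.11 with LY-364947 (-0.21 to 0.43, 0.609) and 0.14 with CHIR-99021 (-0.18 to 0.46, 0.482). These intervals hold no fall as large as those of the other 8 genes. Col2a1, the type II chain, had 3 and 3 counts in MEFs, 5 and 3 for carbidopa, 0 and 0 under LY-364947 and 1 and 0 with CHIR-99021. A count of 0 allows up to 3 counts, so no difference was detectable at this depth. Chondrocyte markers other than collagen II were also scarce, at a summed level of 20.7 to 24.2 CPM in MEFs and 10.2 to 15.6 CPM in treated libraries, with 2 of 10 above 3 counts in both MEF libraries and 3 of 10 in each treated group.

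**Figure D3:**
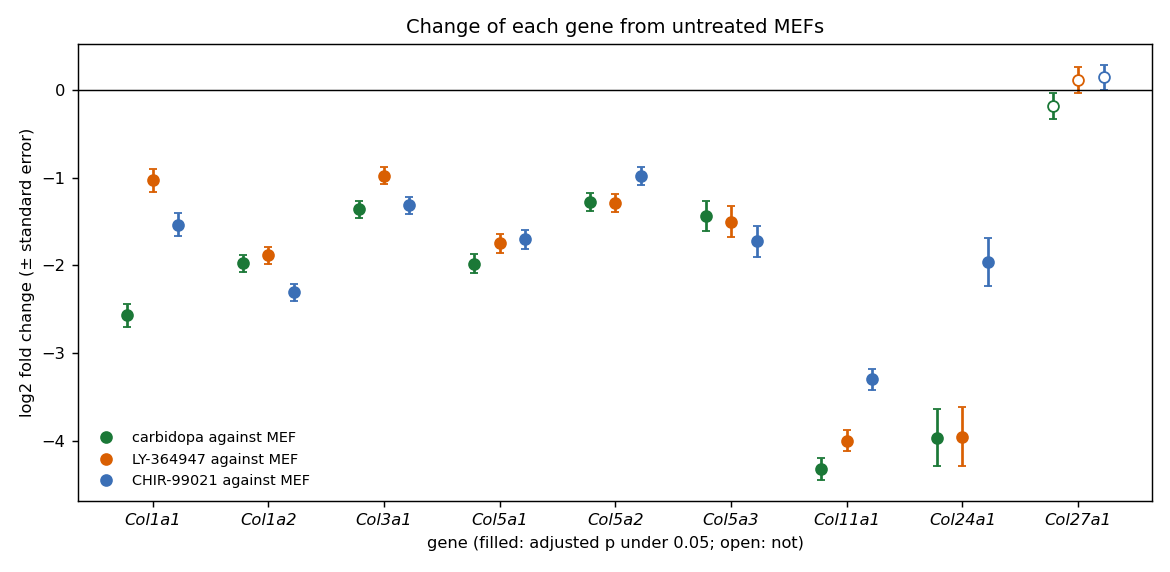
Log2 fold change from MEF (points) with its standard error (bars) for the 9 genes tested, by treatment. Filled points have an adjusted p under 0.05 and open points do not. The 3 points of Col27a1 lie at -0.19, 0.11 and 0.14, while those of the other genes lie between -4.31 and -0.98, with Col11a1 lowest in each treatment and Col24a1 next to it with carbidopa and LY-364947.

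To compare levels between genes, CPM was divided by gene length in kilobases. Per kilobase of all annotated exons merged, the order in MEFs was Col1a1 (612 ± 12.5), Col1a2 (310 ± 1.05), Col5a1 (246 ± 6.53), Col3a1 (151 ± 10.4), Col5a2 (140 ± 5.6), Col11a1 (16.5 ± 1.11), Col5a3 (1.89 ± 0.20), Col24a1 (1.45 ± 0.18), Col27a1 (1.18 ± 0.054) and Col2a1 (0.023 ± 0.0023). The libraries of Col3a1 and Col5a2 overlapped, and all other neighbours in this order were apart. In the treated cells Col1a1 kept the first place at 103 ± 2.39 with carbidopa, 299 ± 57.6 under LY-364947 and 211 ± 0.14 with CHIR-99021. The other 4 abundant genes, Col1a2, Col3a1, Col5a1 and Col5a2, then lay within a narrow range of 57.1 to 83.9, and Col27a1 stood above Col11a1 with carbidopa (1.04 against 0.827) and LY-364947 (1.27 against 1.03). The order depended on the length used. Col1a2 has 12426 bases of merged exons but a longest transcript of 5348 bases, and per kilobase of the longest transcript Col1a2 led in MEFs (721 against 678 for Col1a1) and with carbidopa (183 against 114), while Col1a1 led with LY-364947 (331 against 195) and CHIR-99021 (234 against 146). By that length Col3a1 stood above Col5a1 in MEFs (266 against 248) and Col27a1 above Col24a1 (2.02 against 1.54), and Col1a2, Col3a1, Col5a1 and Col5a2 spread over 62.9 to 195 in treated cells.

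The treatments differed from each other mainly in Col1a1, Col11a1 and Col24a1. CHIR-99021 was higher than carbidopa in 3 of the 9 genes and lower in 1, where 6.62% and 8.08% of all genes were higher and lower. Against LY-364947 it was higher in 2 and lower in 3, where 6.45% and 7.69% of all genes were. LY-364947 was higher than carbidopa in 1 gene and lower in 0, where 0.0132% and 0% of all genes were, which is 2 genes out of 15154.

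Col1a1 differed in each of the 3 pairs. It was higher with LY-364947 than with carbidopa by a log2 fold change of 1.54 ± 0.13 (adjusted p = 0.00204), a difference that was between 1.33 and 1.72 with any 1 library left out and lost its call when the fit held only those 4 libraries (1.54, adjusted p = 0.112). Between CHIR-99021 and carbidopa the difference was 1.03 ± 0.13 (adjusted p = 0.000586). Between CHIR-99021 and LY-364947 it was -0.50 ± 0.13 (0.0252), and this call was lost without LY-364947 replicate 1 (-0.30, adjusted p = 0.255), either MEF replicate (-0.50, 0.0591 and -0.51, 0.0560) or either CHIR-99021 replicate (-0.50, 0.151 and 0.107).

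For Col11a1, the CHIR-99021 level exceeded that of carbidopa by 1.02 ± 0.12 (adjusted p = 0.000510) and that of LY-364947 by 0.70 ± 0.12 (0.00437). The second call was lost without CHIR-99021 replicate 1 (0.66, adjusted p = 0.0556) and without LY-364947 replicate 1 (0.62, 0.0793). Col24a1 was likewise higher with CHIR-99021, by 2.00 ± 0.35 (adjusted p = 0.00463) over carbidopa and 1.99 ± 0.36 (0.00579) over LY-364947. The difference from LY-364947 was 1.55 (0.0639) once its replicate 1 was left out. Without both carbidopa libraries, whose replicates lay farthest apart, the falls of 8 genes under LY-364947 and with CHIR-99021 were all called again. That fit also called Col5a2 higher with CHIR-99021 than under LY-364947 (0.30, adjusted p = 0.00608), as did the fit without a filter (0.32, 0.0470), the fit of those groups alone and those without either carbidopa library. With all libraries the difference was 0.30 ± 0.10 (adjusted p = 0.0748) and was not called.

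Smaller differences went the other way. Col1a2 was lower with CHIR-99021 than with carbidopa (-0.33 ± 0.09, adjusted p = 0.0407) and LY-364947 (-0.42 ± 0.09, 0.0148), and Col3a1 was lower than with LY-364947, at -0.34 ± 0.10 (0.0456). The first lost its call without any single MEF, CHIR-99021 or LY-364947 library (-0.36 to -0.29) and with a fit of the 2 groups alone (-0.32, adjusted p = 0.246). The second lost it without either CHIR-99021 or either LY-364947 library (-0.45 to -0.38), and the third without any 1 of the 6 MEF, CHIR-99021 and LY-364947 libraries (-0.34 to -0.32). Between LY-364947 and carbidopa, Col3a1 differed by 0.38 (95% interval 0.17 to 0.60, adjusted p = 0.519) and Col5a1 by 0.23 (-0.0029 to 0.47, 0.519), neither of which was called. Without carbidopa replicate 2, 3 genes were called in that comparison (Col1a1, Col3a1 and Col11a1), and the calls over all genes rose from 2 to 3816.

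**Figure D4:**
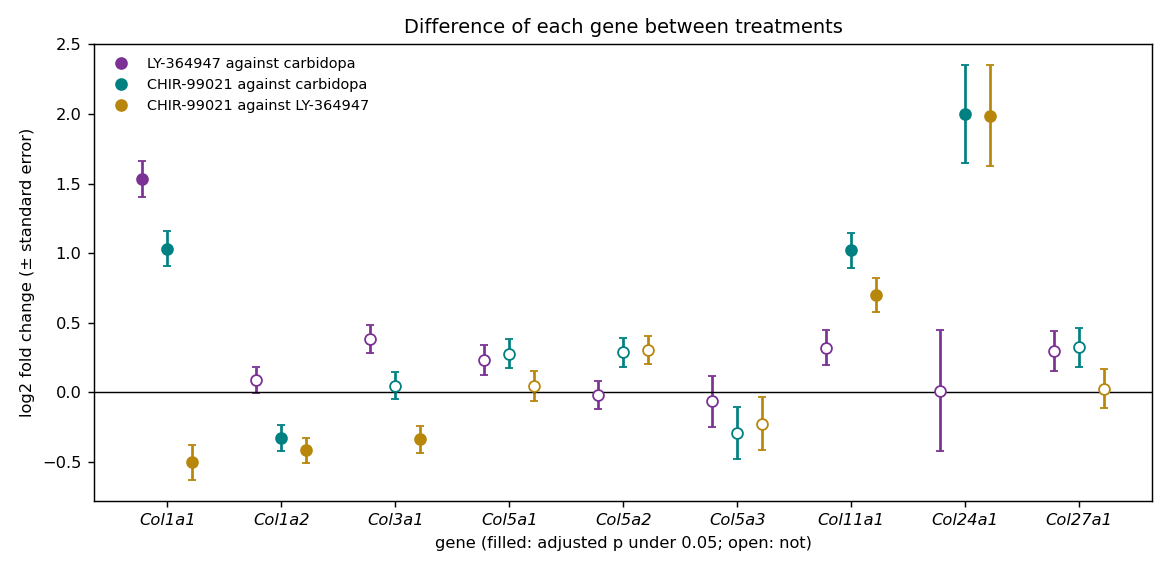
Log2 fold change between treatments (points) with its standard error (bars) for the 9 genes tested. Filled points have an adjusted p under 0.05. Col1a1 is filled in all 3 comparisons, at 1.54, 1.03 and -0.50, and Col24a1 with CHIR-99021 stands 2.00 and 1.99 above the other treatments.

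The ratio of chains within a library does not depend on library scaling, so it shows unequal change directly. Of the 5 ratios computed, Col1a1 to Col1a2 in reads was 1.06 and 1.02 in MEFs, 0.706 and 0.676 with carbidopa, 2.08 and 1.67 under LY-364947 and 1.82 and 1.73 with CHIR-99021. MEFs thus lay between carbidopa, where the ratio was lower, and the other treatments, where it was higher. A difference of MEFs from the 6 treated libraries as a whole was not called (exact permutation test, two-sided, p = 0.464, smallest possible 0.0357), whereas the 4 groups differed among themselves (exact permutation over all divisions of the libraries into 4 pairs, p = 0.0286, adjusted over 5 ratios 0.0476). The ratio of Col3a1 to Col1a1 was 0.345 and 0.391 in MEFs, 0.867 and 0.827 with carbidopa, 0.337 and 0.439 under LY-364947 and 0.430 and 0.426 with CHIR-99021. Only the carbidopa libraries stood clear of the rest, and the exact permutation test over the 4 groups gave p = 0.0857. The test over the 4 groups was added after the data were seen, so its p-values here and below are descriptions only. The test of MEFs against treated libraries takes the 8 libraries as exchangeable, although they come in 4 groups of 2. Its p-values here and below are therefore descriptions too.

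Within type V collagen, Col5a1 to Col5a2 in reads was 1.63 and 1.49 in MEFs, 0.894 and 1.02 with carbidopa, 1.11 and 1.16 under LY-364947 and 0.992 and 0.905 with CHIR-99021. All 6 treated libraries lay under both MEF libraries, by -0.63 on the log2 scale (exact permutation, p = 0.0357, the smallest that 28 choices allow, adjusted 0.0893, over the 4 groups p = 0.0381, adjusted 0.0476). Col11a1 to Col5a1 was 0.0940 and 0.107 in MEFs, 0.0186 and 0.0212 with carbidopa, 0.0212 and 0.0212 under LY-364947 and 0.0321 and 0.0347 with CHIR-99021. This ratio too was lower in all treated libraries, by -2.06 on the log2 scale (exact permutation, p = 0.0357, adjusted 0.0893, over the 4 groups p = 0.00952, adjusted 0.0238). For the neighbours Col5a2 and Col3a1 the ratio was 0.927 and 0.890 in MEFs, 0.985 and 0.943 with carbidopa, 0.708 and 0.754 under LY-364947 and 1.16 and 1.12 with CHIR-99021. Here MEFs and the treated libraries as a whole did not separate (exact permutation, p = 0.821), but the groups did (p = 0.00952, the smallest possible, adjusted 0.0238), with LY-364947 lowest and CHIR-99021 highest. The ratios Col11a1 to Col5a1 and Col5a2 to Col3a1 were also chosen after the data were seen, which the adjustment does not cover.

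**Figure D5:**
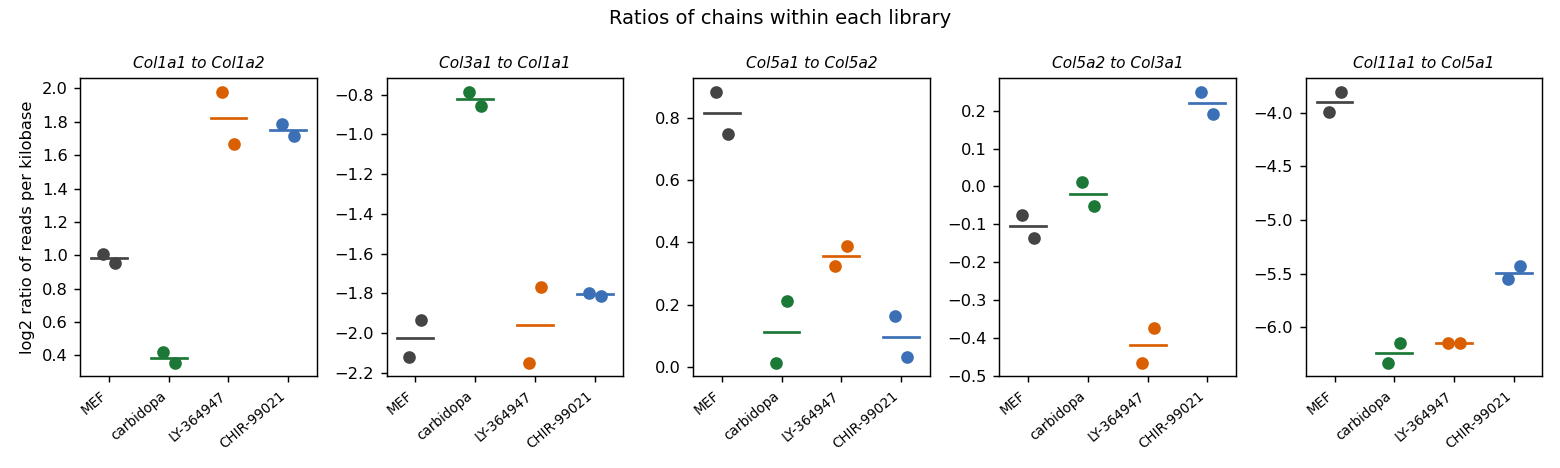
Log2 ratio of reads per kilobase for 5 pairs of genes, with a point per library and a line at the group mean (n = 2). In the panels of Col5a1 to Col5a2 and Col11a1 to Col5a1 both MEF points lie above all treated points, whereas for Col1a1 to Col1a2 they lie between carbidopa and the other treatments.

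Across the 8 libraries, the log2 CPM of Col1a2 was most like that of Col5a3 (Pearson r = 0.989), and that of Col11a1 like those of Col5a2 (0.990) and Col5a1 (0.990). Col1a1 correlated less with its partner Col1a2 (0.790) than with Col3a1 (0.898), and the correlation of Col27a1 with other members ran from -0.155 to 0.441. Among genes outside the family, genes with a pattern most like that of Col1a1 included Actn4 (0.980), Mpzl3 (0.970), Slc16a4 (0.957) and Abcb10 (0.955). Actn4, which encodes an actin cross-linker, had a mean of 952 CPM in MEFs, 163 CPM with carbidopa, 441 CPM under LY-364947 and 391 CPM with CHIR-99021. The pattern of Col3a1 was most like those of Ctnna2 (0.996), Gm10252 (0.994), Ndnf (0.990), Moxd1 (0.987) and Arsj (0.986). The points share libraries and groups, so these correlations are descriptions only.

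Genes that act on fibrillar collagen were counted by list, and no list was tested as a set. To set beside every list below, 19.7%, 17.2% and 20.1% of all genes tested were lower with carbidopa, LY-364947 and CHIR-99021. In the same order, 18.0%, 13.7% and 18.7% were higher. Of 23 genes of chain folding and hydroxylation, 11, 13 and 10 were lower for carbidopa, LY-364947 and CHIR-99021. In each treatment 2 were higher, which is under the share of all genes. P4ha3, a catalytic subunit of prolyl 4-hydroxylase, fell from 96.1 ± 3.13 CPM in MEFs to 6.09 ± 0.62, 7.44 ± 0.12 and 11.7 ± 0.55 CPM in the treatments (log2 fold change -3.98, -3.69 and -3.04, adjusted p = 7.73e-09, 1.30e-08 and 3.80e-08). Sparc, a collagen-binding chaperone, had log2 fold changes of -0.89, -0.84 and -0.98 (adjusted p = 3.64e-05, 5.55e-05 and 1.79e-05). P3h2, a prolyl 3-hydroxylase, rose with carbidopa (1.32, adjusted p = 0.000193) and LY-364947 (1.68, 3.46e-05) and was 0.44 with CHIR-99021 (0.0766).

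Of 7 tested genes of propeptide removal, 3 rose in each treatment, and 4, 3 and 3 fell. Adamts2, which trims the amino-terminal propeptide, had log2 fold changes of -1.07, -0.97 and -2.08 (adjusted p = 2.08e-05, 4.62e-05 and 2.27e-07), and its relative Adamts3 had 2.11, 2.27 and 1.73 (8.40e-05, 5.26e-05 and 0.000409). Tll1, a protease of the carboxy-terminal propeptide, had -1.70, -1.53 and -2.75 (2.85e-06, 6.45e-06 and 1.54e-07). Among the 5 cross-linking lysyl oxidases, 2 fell and 2 rose in each treatment. Lox fell from 5760 ± 123 CPM to 858 ± 71.6, 1045 ± 56.7 and 1990 ± 118 CPM, and Loxl3 had log2 fold changes of -1.40, -1.40 and -0.84 (5.11e-06, 5.68e-06 and 0.000184). Loxl4 rose from 14.9 ± 0.76 CPM to 63.4 ± 4.93, 83.3 ± 13.6 and 85.1 ± 0.92 CPM.

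Fibril partners fell with the fibrillar collagens. Of 15 tested, 13, 12 and 13 were lower and 1 was higher in each treatment, with medians of -1.73, -1.37 and -1.82 on the log2 scale. The small proteoglycan Bgn had log2 fold changes of -4.54, -4.17 and -3.12 (adjusted p = 5.88e-09, 9.84e-09 and 5.12e-08), the proteoglycan Fmod -5.15, -4.95 and -6.84 (2.75e-08, 3.64e-08 and 2.07e-08) and the matricellular protein Postn -1.84, -1.98 and -1.33 (3.20e-07, 2.12e-07 and 3.15e-06). The gene that rose, named after its values were seen, was Col11a2, the alpha2(XI) chain, itself a fibrillar collagen gene that is not among the members. It had a mean of 0.407 CPM in MEFs against 1.60, 1.34 and 2.26 CPM, with log2 fold changes of 1.93 ± 0.47, 1.68 ± 0.49 and 2.43 ± 0.46 (adjusted p = 0.00982, 0.0251 and 0.00226), opposite to its partner Col11a1. These levels are low, so depth limits what can be said of Col11a2.

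All 8 tested genes of degradation and uptake were lower in each treatment, collagenase and inhibitors alike. Mmp13, an interstitial collagenase, had log2 fold changes of -4.98, -5.15 and -3.73 (adjusted p = 7.18e-08, 7.64e-08 and 2.57e-07), and the metalloprotease inhibitors Timp1 and Timp3 had -2.95, -3.18 and -2.81 and -2.68, -2.83 and -3.44. Of 7 collagen receptors, 4, 3 and 4 were lower and 1 higher, the latter near the share of all genes. Itgb1, the beta subunit shared by collagen-binding integrins, had log2 fold changes of -1.02, -0.98 and -0.67 (adjusted p = 1.64e-05, 2.33e-05 and 0.000325), and the alpha subunits Itga11 and Itga1 had -1.48, -1.14 and -1.73 and -1.23, -0.84 and -1.42.

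Of 21 tested regulators of fibrillar collagen transcription, 9, 10 and 8 were lower and 2, 3 and 3 higher. The higher counts lay near or under the shares of all genes given above. Smad4, the common partner of the TGF-beta Smads, had log2 fold changes of -1.71, -1.47 and -1.09 (adjusted p = 8.33e-07, 2.41e-06 and 1.83e-05) and the early growth response factor Egr1 -1.81, -1.59 and -1.67 (7.81e-07, 1.85e-06 and 1.30e-06). The other Smads of the list moved apart: Smad2 was called lower (-0.38, -0.36 and -0.34) and Smad3 higher (0.64, 0.72 and 0.71) in each treatment. The tendon factor Mkx rose by 0.69, 0.67 and 1.36 (0.000985, 0.00131 and 8.30e-06). Of 7 TGF-beta targets, 6, 6 and 4 were lower and 1, 1 and 2 higher. Ccn2 (Ctgf in the count table) had log2 fold changes of -3.34, -3.63 and -1.15, Ltbp2 -3.10, -2.78 and -0.74, and Tgfbi -1.59, -1.52 and -4.24. Of 6 tested Wnt targets, 1, 1 and 2 were higher and 2, 2 and 3 lower: Tcf7 had 2.34, 2.64 and 3.08, Nkd2 -2.11, -2.01 and -1.56, and Lgr5 -9.49, -9.11 and -9.02. With carbidopa and LY-364947 the higher counts lay near the shares of all genes. Lef1 was called higher only with CHIR-99021 (-0.13, -0.68 and 1.67) and Nkd1 lower only there (-0.58, -0.37 and -1.39). Axin2 was not called (0.39, 0.62 and -0.20).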

How the data were processed

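Raw counts per gene of 8 libraries were deposited by the authors, made with STAR 2.4.2a on mm10 and featureCounts. The methods name NEBNext Ultra libraries, the labels a SMARTER kit. The annotation release, the strand setting and the handling of multi-mapped reads are not given in the sources used here. Groups and replicate numbers came from the sample titles. The members and gene lists were chosen with earlier results of these data known. Counts were analysed in R 4.3.3 with edgeR 4.0.16 (filterByExpr, TMM, quasi-likelihood test, a single fit of 8 libraries with a term for group, Benjamini-Hochberg adjustment over the 15154 genes tested), and a gene was called at an adjusted p under 0.05. The coefficient of biological variation was 11.0%. Merged exon lengths and positions came from GENCODE M21 (GRCm38), which held 99.6% of the gene identifiers. Correlations used log2(CPM + 0.5). The fit was tested on simulated data. Alternatives were DESeq2 1.42.0, RLE size factors, other filters, a fit of just the groups compared, a block for replicate number, and omission of each library in turn. The 4-group permutation test, the ratios Col5a2 to Col3a1 and Col11a1 to Col5a1 and the fit without carbidopa were added after seeing the data. All 10 members are named, with up to 3 called genes of each list (smallest p against MEF) and the 5 genes most like Col1a1 and Col3a1, of which 1 is not reported here. Mia2 was left out, since 2 identifiers carry this symbol. Intervals cover the spread between these libraries only.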

Additional observations from a re-analysis of the deposited data

How the results depend on the processing

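The falls from MEF were the most stable result: 8 genes were lower and 0 higher in each treatment under every alternative except a minimum of 10 counts in every library, which removed Col24a1 from the test and left 7. The replicate block gave 8 lower genes in each comparison with MEF. The replicate numbers are shared by the labels only: deviations of same-numbered libraries correlated between -0.218 and 0.191, above 0.1 in 1 of 6 pairs of groups. Between treatments the counts were less stable. For CHIR-99021 against carbidopa, the 1 lower gene (Col1a2) became 0 with the replicate block and with the 2 groups alone, and with libraries left out in turn 3 to 5 genes were higher and 0 to 1 lower. For CHIR-99021 against LY-364947, a minimum of 10 counts gave 1 higher gene, and leaving out libraries gave 0 to 3 higher and 0 to 3 lower. With the replicate block Col3a1 lost its call there (-0.34, adjusted p = 0.0749). For LY-364947 against carbidopa, the 2 groups alone gave 0 higher genes and leaving out libraries 1 to 3. Over all genes, that comparison had 2 calls, but 13 with DESeq2, 329 without a filter and 3816 without carbidopa replicate 2. An arm left with 1 library was assumed to vary like the others. Uncalled differences near 0 changed sign: Col24a1 between LY-364947 and carbidopa was -0.0038 without a filter, -0.0043 with the replicate block and -0.64 to 0.46 with libraries left out. In the same way Col5a2 ran from -0.10 to 0.074 and Col5a3 from -0.17 to 0.041 in that comparison, Col3a1 from -0.0051 to 0.11 between CHIR-99021 and carbidopa, and Col5a1 from -0.055 to 0.15 and Col27a1 from -0.059 to 0.12 between CHIR-99021 and LY-364947. The cause of these shifts was not tested. The log2 ratio of Col5a1 to Col5a2, treated minus MEF, ran from -0.69 to -0.56 and that of Col11a1 to Col5a1 from -2.16 to -1.96, where 1 MEF library cannot reach a p under 0.143 (exact permutation), and Col5a2 to Col3a1 from -0.032 to 0.11. As an unscaled share of reads, the summed level was 30.5%, 44.5% and 36.8% of MEF for carbidopa, LY-364947 and CHIR-99021. On the TMM scale without Col1a1 it was 29.6%, 33.3% and 30.4%. Of the 72 genes of collagen maturation and turnover, not all of which had enough counts for a test, 9 were higher in each treatment. Lower were 42 with carbidopa, 41 under LY-364947 and 40 with CHIR-99021. In the same order, 18.0%, 13.7% and 18.7% of all genes tested were higher and 19.7%, 17.2% and 20.1% lower. The counts of listed genes changed when libraries were left out. Depth limits what can be said of Col2a1, Col24a1 and Col11a2.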
